A study of Mus musculus with 24 samples.

Results

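The third day of epiblast-like cell (EpiLC) induction was examined as a comparison of 2 day 3 EpiLC arrays with 2 day 2 EpiLC arrays, which are 4 of the 24 arrays of the series. They were chosen by their labels, as the EpiLC samples of those days whose RNA was labelled without prior amplification. Embryonic stem cells (ESCs), kept in 2i+LIF medium without feeder cells, were the starting point, and all 4 samples carry the strain label C57BL/6. Day 2 is the stage from which the study made primordial germ cell-like cells (PGCLCs), so the comparison asks what changes when induction runs 1 day longer. The name of the ESC line, the EpiLC medium and any reporter transgene are not given in the labels, which call the 2 samples of a day biological replicates without saying whether they were separate cultures. P-values therefore measure the spread between samples of the same group, which may be technical. That spread is pooled over the 6 unamplified groups of the series and is not taken from these 4 samples alone. With 2 arrays against 2, an exact permutation test of a single value cannot give a p below 0.33, so tests rest on a fit across all genes.

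EpiLCs are a cultured counterpart of the epiblast, the layer of the implanting embryo that gives rise to the body and to germ cells. As naive ESCs enter this state they silence naive factors such as Klf4 and Esrrb, keep the core factors Oct4 (Pou5f1) and Sox2, and switch on postimplantation genes such as Fgf5, Otx2 and Pou3f1. The state is transient, and competence to form germ cells belongs to a window before cells turn to somatic lineages.

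RNA was hybridised to Affymetrix Mouse Genome 430 2.0 arrays, and the deposited values are intensities on a linear scale. Of the genes on the array, 14935 were tested in a limma fit over all 12 unamplified arrays, which hold day 3, day 2 and day 1 EpiLCs, ESCs, epiblast stem cells (EpiSCs) and PGCLCs. Differences are log2 of day 3 minus day 2, given with the standard error (SE) and n = 2 arrays per day. The SE of a gene takes its spread from all 6 groups, not from the day 3 and day 2 arrays alone. A gene passed where its adjusted p was under 0.05, and was called where it also differed by at least 1 on the log2 scale. The filter level is an intensity of 28.1, the 40th percentile of these arrays. Where the dimmer day lay below it on both arrays, a bound of "at least" so many fold against that level is given in place of the fitted difference. Median intensities were 46.0 and 45.1 on the day 3 arrays and 45.0 and 45.6 on the day 2 arrays. The 5′ to 3′ signal ratio of Actb, a sign of RNA integrity, was 0.841 and 0.802 on day 3 arrays and 0.870 and 0.825 on day 2 arrays. No 2 arrays held identical values. The 6 defining markers of the EpiLC label, Fgf5, Otx2, Pou3f1, Dnmt3b, Pou5f1 and Sox2, lay above the filter level on all 4 arrays.

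Between day 3 and day 2, 221 genes rose and 415 fell, which together are 636 called genes. These are 1.48% and 2.78% of all genes tested, and 4.26% together. By adjusted p alone, 1857 genes (12.4%) were higher and 1987 (13.3%) lower, 3844 (25.7%) in all. These shares are the background for all counts of list members given below. Most of the called differences were moderate: 30 rises and 33 falls reached a fitted 4-fold. The genes that fell were dim at day 3. Their median intensity was 42.0 in day 3 and 108 in day 2 EpiLCs, and 150 of the 415 lay below the filter level on both day 3 arrays. Genes that rose had a median of 207 at day 3 and 73.6 at day 2, and 48 of the 221 were below the filter level on both day 2 arrays. The 2 days did not overlap for any called gene, nor for 63.2% of all genes tested, so a lack of overlap adds no support to a call. The root mean square log2 difference was 0.535 ± 0.023 between day 3 and day 2 arrays (SD over 4 pairs of arrays). It was 0.371 between the day 3 arrays and 0.307 between the day 2 arrays.

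**Figure D1:**
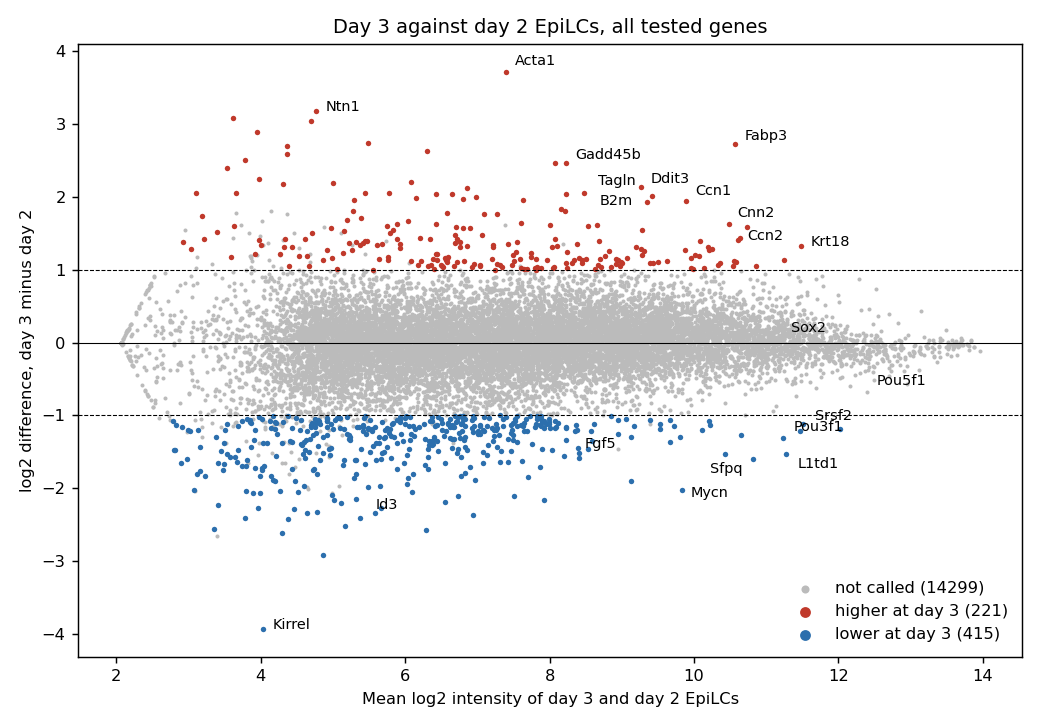
Log2 difference between day 3 and day 2 EpiLCs (vertical axis, day 3 minus day 2) against the mean log2 intensity of both days (horizontal axis), 1 point per tested gene. Red points are the 221 genes called higher at day 3 and blue points the 415 called lower. Dashed lines mark a difference of 1 in either direction, and Pou5f1 and Sox2 lie between them.

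Genes of the contractile actin cytoskeleton made up the list with the most called rises. The list joins actin-binding proteins, targets of serum response factor (SRF), which responds to the pool of unpolymerised actin, and targets of YAP and TEAD, the nuclear end of the Hippo pathway. Of its 26 tested members, 7 were called higher and 0 lower, against 1.48% and 2.78% of all genes. By adjusted p alone 17 were higher and 1, Tes, was lower. Tes did not pass with the day 3 and day 2 arrays alone, or with a replicate block over the 8 ESC and EpiLC arrays. With values below the filter level raised to it, 6 members were called higher. The median difference of the list was 0.67, and that of all genes -0.01.

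Acta1, the actin of skeletal muscle, had the largest rise of any named gene. It read 605 and 612 on the day 3 arrays, against 35.2 and 60.6 on the day 2 arrays, a difference of 3.72 ± 0.74 (adjusted p = 0.00395). The days did not overlap, as for every called gene. Ccn1 and Ccn2 encode secreted matrix-associated proteins and are widely used as readouts of YAP. Ccn1 read 1793 and 1945 at day 3, against 467 and 501 at day 2 (1.95 ± 0.22, adjusted p = 0.000122). Ccn2 read 2554 and 2552 at day 3, against 974 and 940 at day 2 (1.42 ± 0.08, adjusted p = 1.78e-06). The days did not overlap for either gene, as for every called gene. Ankrd1, another YAP target, read 38.8 and 32.7 at day 3 and 1 and 1.68 at day 2, where 1 is the lowest value in the table. That is at least 1.27-fold higher at day 3 (adjusted p = 4.69e-05), and the call did not hold when all values below the filter level were raised to it, where the difference was 0.34.

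Cnn2 (calponin 2) and Myl9 (a regulatory light chain of non-muscle and smooth muscle myosin) bind or drive actin filaments. Cnn2 read 2394 and 2617 at day 3, against 790 and 835 at day 2 (1.62 ± 0.11, adjusted p = 6.85e-06). Myl9 read 1648 and 1881 at day 3, against 654 and 678 at day 2 (1.40 ± 0.12, adjusted p = 1.95e-05). Both genes were higher on each day 3 array than on either day 2 array, as was every gene called higher. The other called member, Tead1, is a DNA-binding partner of YAP and is named here after its values were seen. It read 1070 and 1058 at day 3 and 479 and 510 at day 2 (1.11 ± 0.06, adjusted p = 1.78e-06). Yap1 itself read 1422 and 1485 at day 3 and 1592 and 1527 at day 2 and did not pass (adjusted p = 0.354). Members that passed without reaching the fold for a call included Tpm1 (0.96 ± 0.13), Acta2 (0.82 ± 0.07), Vcl (0.63 ± 0.10) and Srf (0.47 ± 0.12). Tpm1 encodes a tropomyosin, Acta2 the actin of smooth muscle, and Vcl the focal adhesion protein vinculin.

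Of 2 further contractile genes outside the list, Actc1, the cardiac actin, was among the largest rises. It read 185 and 209 at day 3, against 25.9 and 38.7 at day 2 (2.63 ± 0.25, adjusted p = 4.13e-05). Tagln, which encodes the actin-binding protein transgelin, read 1331 and 1425 at day 3 and 327 and 352 at day 2 (2.02 ± 0.26, adjusted p = 0.000259). Tagln also counts among mesenchymal markers, and the whole of that marker list is given with the other cell types.

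The promoters of these genes are shown because their rise was shared and because SRF and TEAD each have a known recognition sequence. RefSeq promoter windows of build GRCm38.p6, from 250 bases before to 50 bases after the annotated start, were matched for 5 of the 6 members named by rule (Acta1, Ankrd1, Ccn1, Cnn2 and Myl9). Ccn2 was not matched. Both strands were searched for the CArG box, which SRF binds, and for GGAATG, which TEAD proteins bind. These 2 motifs were chosen after the values were seen. The E-box CACGTG was searched under the rule set for lists without a motif of their own. Capitals mark the matches to the CArG box and to GGAATG or its reverse complement CATTCC, and the 2 motifs do not overlap in these windows.
Acta1 promoter, chr8:123894726-123895025, minus strand: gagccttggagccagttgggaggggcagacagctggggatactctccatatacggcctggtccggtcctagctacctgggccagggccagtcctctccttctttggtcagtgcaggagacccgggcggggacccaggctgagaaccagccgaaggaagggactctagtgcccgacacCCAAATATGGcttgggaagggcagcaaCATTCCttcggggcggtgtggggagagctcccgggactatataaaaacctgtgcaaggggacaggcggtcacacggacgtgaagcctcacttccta
Cnn2 promoter, chr10:79988350-79988649, plus strand: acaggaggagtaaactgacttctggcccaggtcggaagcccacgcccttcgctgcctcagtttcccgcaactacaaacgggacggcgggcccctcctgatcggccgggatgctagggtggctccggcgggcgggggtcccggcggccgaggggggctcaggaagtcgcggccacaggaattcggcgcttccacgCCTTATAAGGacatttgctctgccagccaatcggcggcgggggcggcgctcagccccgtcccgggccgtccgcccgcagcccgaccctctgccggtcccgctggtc
Myl9 promoter, chr2:156775214-156775513, plus strand: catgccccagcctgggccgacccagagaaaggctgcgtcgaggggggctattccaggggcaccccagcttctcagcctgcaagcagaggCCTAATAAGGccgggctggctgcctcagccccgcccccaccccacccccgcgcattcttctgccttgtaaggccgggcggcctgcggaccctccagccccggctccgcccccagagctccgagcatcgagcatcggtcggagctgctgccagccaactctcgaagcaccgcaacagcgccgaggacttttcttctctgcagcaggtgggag
Ankrd1 promoter, chr19:36119795-36120094, minus strand: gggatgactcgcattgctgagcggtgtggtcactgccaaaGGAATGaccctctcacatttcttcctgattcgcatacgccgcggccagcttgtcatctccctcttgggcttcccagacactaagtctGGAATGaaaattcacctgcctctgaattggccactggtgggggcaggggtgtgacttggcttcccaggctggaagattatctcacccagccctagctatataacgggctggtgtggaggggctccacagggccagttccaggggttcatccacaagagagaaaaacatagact
Ccn1 promoter, chr3:145649936-145650235, minus strand: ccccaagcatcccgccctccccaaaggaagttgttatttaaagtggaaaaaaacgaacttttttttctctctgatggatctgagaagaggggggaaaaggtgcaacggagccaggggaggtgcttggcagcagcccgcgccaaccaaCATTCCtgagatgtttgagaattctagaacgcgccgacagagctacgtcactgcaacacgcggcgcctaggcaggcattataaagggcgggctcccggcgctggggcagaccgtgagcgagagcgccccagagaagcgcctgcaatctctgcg

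A CArG box began 73 bases before the start of Acta1, 56 before that of Cnn2 and 161 before that of Myl9. The TEAD motif began 46 bases before the start of Acta1, 103 before that of Ccn1, and 210 and 123 before that of Ankrd1. Each of the 5 windows thus held at least 1 of the 2 motifs, and the Acta1 window held both. Across the list, 23 genes had a promoter in the table, of which 5 held a CArG box, 13 the TEAD motif and 2 the E-box. Of all 32851 promoter windows, 1.63% held a CArG box, 14.7% the TEAD motif and 7.15% the E-box. The list is counted in genes here and the background in windows. Because the list was built partly from targets of SRF and of YAP and TEAD, its counts cannot be read as an excess over all windows. None of the 5 printed windows held the E-box. A match describes the letters of the window and is not evidence of binding.

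**Figure D2:**
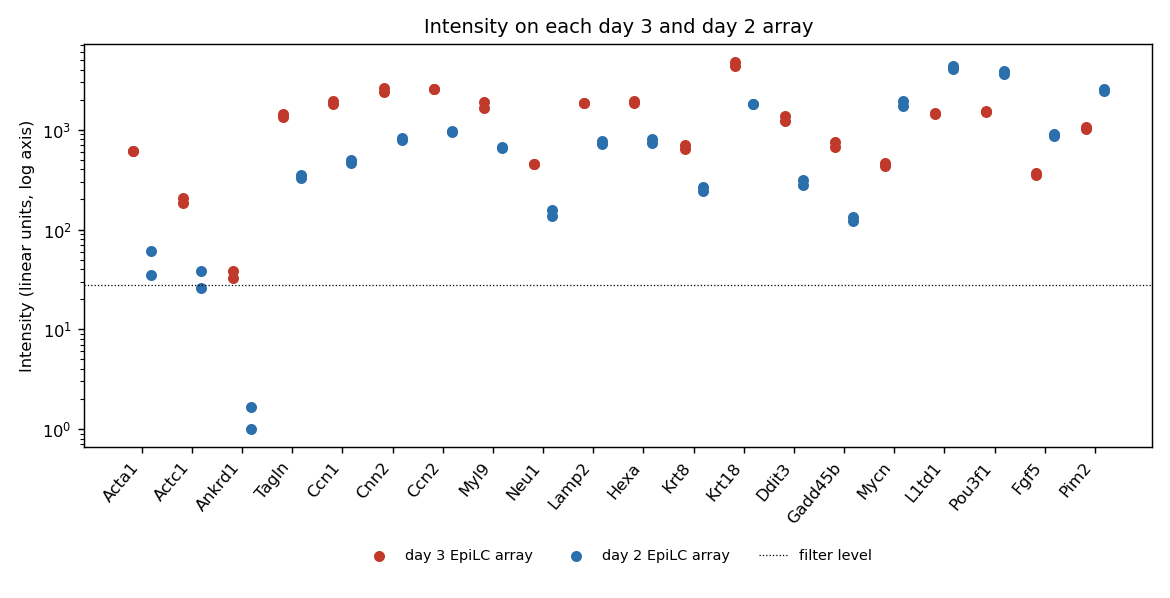
Intensity on each day 3 array (red, left of each pair) and each day 2 array (blue, right) for 20 called genes, on a log axis. The dotted line is the filter level of 28.1. From Acta1 to Gadd45b the day 3 arrays lie above the day 2 arrays, and from Mycn to Pim2 below them. Ankrd1 lies far below the filter level on both day 2 arrays.

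Some epithelial genes rose. Keratins and desmosomes give epithelial sheets their mechanical strength, and tight junctions seal them. Of 30 tested members of the list of epithelial junctions and keratins, 6 were called higher and 1 lower, against 1.48% and 2.78% of all genes. By adjusted p alone 14 were higher and 2 lower (median difference 0.42), against 12.4% and 13.3% of all genes. Krt18 and Krt8 encode the partner keratins of simple epithelia. Krt18 read 4340 and 4739 at day 3, against 1820 and 1808 at day 2 (1.32 ± 0.09, adjusted p = 4.73e-06). Krt8 read 643 and 696 at day 3, against 243 and 264 at day 2 (1.40 ± 0.11, adjusted p = 1.82e-05). The days did not overlap for either keratin, as for every called gene.

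Dsc2, a desmosomal cadherin, read 131 and 113 at day 3 and 35.1 and 57.4 at day 2 (1.44 ± 0.26, adjusted p = 0.00247). Dsp, which links desmosomes to keratins, read 142 and 109 at day 3 and 51.4 and 60.8 at day 2 (1.15 ± 0.16, adjusted p = 0.000416). Another Dsp probe set gave -0.22, and without replicate 1 of day 3 the difference was 0.96 and no longer met the fold for a call. Krt19 was called as well (1.35 ± 0.30, adjusted p = 0.00792), but its adjusted p was 0.0581 without replicate 1 of day 3 and 0.0635 without replicate 1 of day 2. Cldn4, the sixth called member, is a tight junction claudin that rose by 1.02 ± 0.08 and is the 1 named here after its values were seen. The member that fell was Cldn5, a claudin best known from endothelium, with 32.3 and 32.8 at day 3 and 103 and 114 at day 2 (-1.73 ± 0.28, adjusted p = 0.00128). Cdh1, which encodes E-cadherin, read 5382 and 5221 at day 3 and 5153 and 5099 at day 2 and did not pass (0.05 ± 0.04, adjusted p = 0.489). Cdh2, which encodes N-cadherin, was 0.50 ± 0.16 higher (adjusted p = 0.0478) and was not called.

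Basement membrane and integrin genes shifted upwards by small amounts. Of 23 tested members 11 passed as higher and 0 as lower (median difference 0.38), against 12.4% and 13.3% of all genes. The laminin chain Lamb1 read 2003 and 1993 at day 3 and 1189 and 1289 at day 2 (0.69 ± 0.08), and the integrin subunit Itgb1 read 608 and 600 at day 3 and 330 and 363 at day 2 (0.80 ± 0.13). The collagen IV chains Col4a1 (0.80 ± 0.22) and Col4a2 (0.69 ± 0.16) also passed. When a gene was represented by the mean of its probe sets, 3 members passed instead of 11. It was 7 without replicate 2 of day 3 or replicate 1 of day 2, and up to 9 without another array. The 1 called member, Itgb3, lay below the filter level on all 4 arrays.

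Most lysosomal genes were higher at day 3. The list holds hydrolases, membrane proteins and autophagy genes, many of which are targets of the transcription factors Tfeb and Tfe3. Of 26 tested members, 21 passed as higher and 1, Tfe3, as lower, and 3 were called higher. Their median difference was 0.56. Of all genes, 12.4% passed as higher and 13.3% as lower, and 1.48% were called higher. Neu1, a lysosomal sialidase, read 450 and 453 at day 3, against 138 and 157 at day 2 (1.62 ± 0.11, adjusted p = 6.67e-06). Lamp2, an abundant lysosomal membrane protein, read 1843 and 1858 at day 3, against 718 and 769 at day 2 (1.32 ± 0.07, adjusted p = 1.75e-06). Hexa, a subunit of hexosaminidase, read 1865 and 1919 at day 3, against 814 and 741 at day 2 (1.28 ± 0.06, adjusted p = 1.08e-06). In all 3 genes both day 3 arrays lay above both day 2 arrays, as for every gene called higher. Smaller rises that passed included the proteases Ctsc (0.90 ± 0.08), Ctsd (0.71 ± 0.05) and Ctsl (0.60 ± 0.09), the cholesterol exporter Npc1 (0.69 ± 0.09) and the calcium channel Mcoln1 (0.70 ± 0.08). Tfeb did not pass (0.04 ± 0.23, adjusted p = 0.924). The fall of Tfe3 did not pass with values below the filter level raised to it, with no filter, or with the mean of the probe sets. Leaving out 1 array left 15 to 18 members that passed as higher.

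The chaperones of the endoplasmic reticulum (ER), which fold secreted and membrane proteins, were also mostly higher. Of 19 tested members 18 passed as higher and 0 as lower, against 12.4% and 13.3% of all genes. The median difference was 0.48, with a range of passed values from 0.23 to 1.02. Hspa5, the main ER chaperone (BiP), read 7459 and 7701 at day 3 and 4802 and 4295 at day 2 (0.74 ± 0.08, adjusted p = 8.54e-05). Calr, the lectin chaperone calreticulin, read 3441 and 3663 at day 3 and 1801 and 1884 at day 2 (0.95 ± 0.06, adjusted p = 5.08e-06). Manf read 4455 and 4436 at day 3 and 2507 and 2359 at day 2 (0.87 ± 0.06). The 1 called member was Dnajc3, a co-chaperone of Hspa5, at 1361 and 1464 at day 3 and 664 and 726 at day 2 (1.02 ± 0.10, adjusted p = 4.09e-05). It fell just short of the fold for a call without replicate 2 of day 3 (0.97) or without replicate 1 of day 2 (0.96).

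Ddit3, also known as CHOP, is a transcription factor induced by ER and amino acid stress. It read 1230 and 1366 at day 3, against 278 and 311 at day 2 (2.14 ± 0.16, adjusted p = 1.2e-05). Ddit3 belongs to the list of Atf4 and amino acid stress genes, which had a median difference of -0.01. Of its 32 tested members 2 passed as higher and 5 as lower, against 12.4% and 13.3% of all genes. Leaving out any 1 of the 4 arrays left 1 that passed as higher. Atf4 read 4244 and 4649 at day 3 and 4827 and 4585 at day 2 (adjusted p = 0.382). The called fall in that list was Ddit4, an inhibitor of mTORC1, at 1968 and 1984 at day 3 and 4498 and 4105 at day 2 (-1.12 ± 0.10, adjusted p = 3.39e-05). Gadd45b and Gadd45g, stress-responsive regulators of the cell cycle and of DNA repair, both rose. Gadd45b read 666 and 751 at day 3, against 123 and 132 at day 2 (2.47 ± 0.10, adjusted p = 4.53e-07). Gadd45g read 557 and 548 at day 3, against 153 and 163 at day 2 (1.80 ± 0.30, adjusted p = 0.00148). Perp, a p53 target and desmosomal protein, was the called member of the 22 tested p53 and apoptosis genes (326 and 281 at day 3, 105 and 128 at day 2, 1.38 ± 0.12, adjusted p = 3.06e-05). Of those 22, 6 passed as higher and 3 as lower, against 12.4% and 13.3% of all genes. Without replicate 1 of day 3, replicate 2 of day 3 or replicate 2 of day 2, 1 passed as lower.

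Immediate early genes, which respond within minutes to growth factors, serum or mechanical stimuli, included 4 called rises. Of 19 tested members 4 were called higher and 1, Myc, lower, against 1.48% and 2.78% of all genes. By adjusted p alone 9 were higher and 4 lower, against 12.4% and 13.3% of all genes. Leaving out replicate 2 of day 3 or either day 2 array left 0 called lower and 2 that passed as lower. Ccn1, described above, belongs to this list too. Junb, a subunit of the AP-1 factor, read 221 and 169 at day 3, against 64.7 and 65.0 at day 2 (1.58 ± 0.18, adjusted p = 0.000133). Fos, its partner, read 83.6 and 61.5 at day 3 and 30.8 and 24.2 at day 2 (1.39 ± 0.27, adjusted p = 0.00347). Zfp36, which destabilises mRNAs, read 236 and 233 at day 3 and 95.7 and 93.2 at day 2 (1.31 ± 0.19, adjusted p = 0.000586). The day 3 values of all 4 genes lay above their day 2 values, as for every gene called higher.

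The targets and feedback inhibitors of the kinase ERK, which acts downstream of FGF, shared Fos, Egr1, Ier3 and Myc with that list. Of 19 tested, 3 were called higher and 1 lower, against 1.48% and 2.78% of all genes. By adjusted p alone 8 were higher and 4 lower (median 0.41), against 12.4% and 13.3% of all genes. The count passing as lower was 1 without replicate 2 of day 3, 2 without replicate 1 of day 2 and 0 without replicate 2 of day 2, and the called fall, Myc, was lost in each. Dusp5, a phosphatase that inactivates ERK, read 99.5 and 95.9 at day 3 and 43.4 and 33.6 at day 2 (1.36 ± 0.20, adjusted p = 0.000629). The feedback inhibitors Spry1 (0.88 ± 0.13), Spry2 (0.85 ± 0.07) and Dusp6 (0.66 ± 0.08) passed as well. Phlda1 was called (1.01 ± 0.18), but not without replicate 1 of day 3 (0.98) or replicate 1 of day 2 (0.85).

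Postimplantation epiblast genes were the list with the most called falls beside no called rise. Of 23 tested members 6 were called lower and 0 higher, against 2.78% and 1.48% of all genes. By adjusted p alone 13 were lower and 1, Cdh2, was higher, against 13.3% and 12.4% of all genes. The median difference was -0.85. Fgf5, the classic marker of the postimplantation epiblast, read 368 and 348 at day 3, against 857 and 900 at day 2 (-1.29 ± 0.15, adjusted p = 0.000131). Pou3f1 (Oct6), a POU factor of the same stage, read 1529 and 1517 at day 3, against 3915 and 3637 at day 2 (-1.31 ± 0.09, adjusted p = 7.44e-06). Pim2, a serine/threonine kinase, read 1012 and 1055 at day 3, against 2550 and 2435 at day 2 (-1.27 ± 0.08, adjusted p = 5.13e-06). All 3 stayed far above the filter level at day 3.

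Sall2, a zinc finger factor, read 141 and 133 at day 3 and 283 and 308 at day 2 (-1.11 ± 0.12, adjusted p = 9.88e-05). Fst, which encodes the activin inhibitor follistatin, was at the edge of a call (126 and 101 at day 3, 230 and 221 at day 2, -1.0 ± 0.27, adjusted p = 0.0207). Its adjusted p was 0.138 without replicate 2 of day 3, 0.106 without replicate 1 of day 2 and 0.0861 without replicate 2 of day 2. Wnt8a lay below the filter level on all 4 arrays. Sox3 (259 and 249 at day 3, 473 and 473 at day 2, -0.90 ± 0.13) and Sox4 (1682 and 1649 at day 3, 3075 and 2987 at day 2, -0.86 ± 0.06) passed without being called. Otx2 read 1319 and 1407 at day 3 and 1647 and 1755 at day 2. Its difference of -0.32 ± 0.40 did not pass in the fit that takes its spread from all 6 groups (adjusted p = 0.639). With the day 3 and day 2 arrays alone, 18 members of the list passed as lower and 2 as higher, and 8 were called lower. A replicate block over the 8 ESC and EpiLC arrays gave 18 passed as lower, 1 as higher and 8 called lower. With the mean of the probe sets, 11 passed as lower and 5 were called lower. Cdh2 did not pass as higher with values below the filter level raised to it or with no filter. Leaving out 1 array left 9 to 11 members that passed as lower.

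The de novo DNA methyltransferases are also postimplantation genes. Dnmt3a read 1562 and 1595 at day 3 and 3124 and 2918 at day 2 (-0.94 ± 0.13, adjusted p = 0.000425), just short of a call. Dnmt3b read 6669 and 6312 at day 3 and 9866 and 9442 at day 2, and did not pass in the fit that takes its spread from all 6 groups (-0.57 ± 0.26, adjusted p = 0.14). Dnmt3l, their catalytically inactive cofactor, read 984 and 1006 at day 3 and 1142 and 1198 at day 2 (-0.23 ± 0.65, adjusted p = 0.85). Day 3 values were the lower ones for all 3 genes, but only that of Dnmt3a passed. In the whole DNA methylation list of 15 tested genes 0 were called. Of the 15, 2 passed as lower (Dnmt3a and Tet1) and 1 as higher (Zfp57), against 13.3% and 12.4% of all genes. The count passing as lower depends on the fit: it was 4 with the day 3 and day 2 arrays alone and 5 with a replicate block over the 8 ESC and EpiLC arrays, and Dnmt3b and Dnmt3l passed in both. Leaving out any 1 of the 4 arrays left 0 that passed as higher, and without replicate 2 of day 2, 1 passed as lower.

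Core pluripotency genes were unequal. Of 14 tested members 2 were called lower, against 2.78% of all genes. By adjusted p alone 7 were lower and 0 higher (median -0.26), against 13.3% and 12.4% of all genes. Without replicate 1 of day 3 or replicate 1 of day 2, 4 passed as lower. L1td1, an RNA-binding protein of pluripotent cells, read 1446 and 1480 at day 3, against 4346 and 4089 at day 2 (-1.53 ± 0.05, adjusted p = 1.19e-07). Dppa2, a chromatin factor of pluripotent cells, read 819 and 802 at day 3, against 1862 and 1680 at day 2 (-1.13 ± 0.12, adjusted p = 8.78e-05). Pou5f1 passed with a small fall, at 4772 and 5058 at day 3 and 6302 and 6039 at day 2 (-0.33 ± 0.07, adjusted p = 0.00753). Sox2 read 2477 and 2462 at day 3 and 2383 and 2393 at day 2 and did not pass (0.05 ± 0.04, adjusted p = 0.466).

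The naive pluripotency genes, characteristic of ESCs, did not fall as a group. Of 18 tested, 2 were called higher and 1 lower, against 1.48% and 2.78% of all genes. By adjusted p alone 5 were higher and 3 lower (median 0.27), against 12.4% and 13.3% of all genes. Without replicate 2 of day 3 or replicate 2 of day 2, 0 passed as lower, and 2 were called lower without replicate 1 of day 3 or replicate 1 of day 2. Tbx3, a T-box factor, read 142 and 141 at day 3, against 46.0 and 27.7 at day 2 (1.99 ± 0.22, adjusted p = 9.98e-05). Tfcp2l1 read 265 and 283 at day 3, against 102 and 112 at day 2 (1.36 ± 0.08, adjusted p = 2.12e-06). Both were well below their ESC means, which were 1855 for Tbx3 and 4736 for Tfcp2l1. Nanog, counted in this list, read 1762 and 1908 at day 3 and 1251 and 1297 at day 2 (0.53 ± 0.10, adjusted p = 0.00245). Klf5 (0.92 ± 0.14) and Fbxo15 (0.80 ± 0.06) also passed as higher, and Zfp42 (Rex1) passed as lower at -0.39 ± 0.11. Klf4 (0.49 ± 0.24, adjusted p = 0.172) and Esrrb (0.40 ± 0.17, adjusted p = 0.122) did not pass in the fit that takes its spread from all 6 groups. With a replicate block over the 8 ESC and EpiLC arrays, 8 members of the list passed as higher and 5 as lower. The called fall was Gbx2, at 67.6 and 53.4 at day 3 and 132 and 145 at day 2 (-1.20 ± 0.27, adjusted p = 0.00726). Its adjusted p was 0.0652 without replicate 2 of day 3 and 0.0557 without replicate 2 of day 2.

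Early germ cell genes were not called in either direction. Of 18 tested members 4 passed as higher and 3 as lower, against 12.4% and 13.3% of all genes. With a replicate block over the 8 ESC and EpiLC arrays, 7 passed as higher and 2 as lower. Leaving out any 1 of the 4 arrays left 1 that passed as lower, and without replicate 2 of day 3 or replicate 1 of day 2, 2 passed as higher. Prdm1 (Blimp1), a founding regulator of germ cells, was dim on both days, with 23.6 and 23.6 at day 3 and 32.6 and 34.4 at day 2 (at least 1.19-fold lower, adjusted p = 0.0399). Prdm14 lay below the filter level on all 4 arrays. Tfap2c read 305 and 243 at day 3 and 155 and 162 at day 2 (0.78 ± 0.11, adjusted p = 0.000647). It would have been called from the mean of its probe sets, at 1.24. That mean includes a dim probe set at the floor of 4.2 at day 2 and 31.3 at day 3, which gave 2.90. Another probe set of Tfap2c gave 0.03. Dppa3 (Stella) read 473 and 475 at day 3 and 246 and 284 at day 2 and missed the threshold (0.84 ± 0.29, adjusted p = 0.0582). In PGCLCs the same genes averaged 1067 for Prdm1, 1677 for Prdm14, 4640 for Tfap2c and 4510 for Dppa3. Among later germ cell genes, Sycp3, a component of the meiotic chromosome axis, read 1874 and 1864 at day 3 and 826 and 959 at day 2 (1.07 ± 0.11, adjusted p = 9.25e-05, and 0.96 without replicate 1 of day 2). It was the 1 called gene of 21 tested, of which 2 passed.

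**Figure D3:**
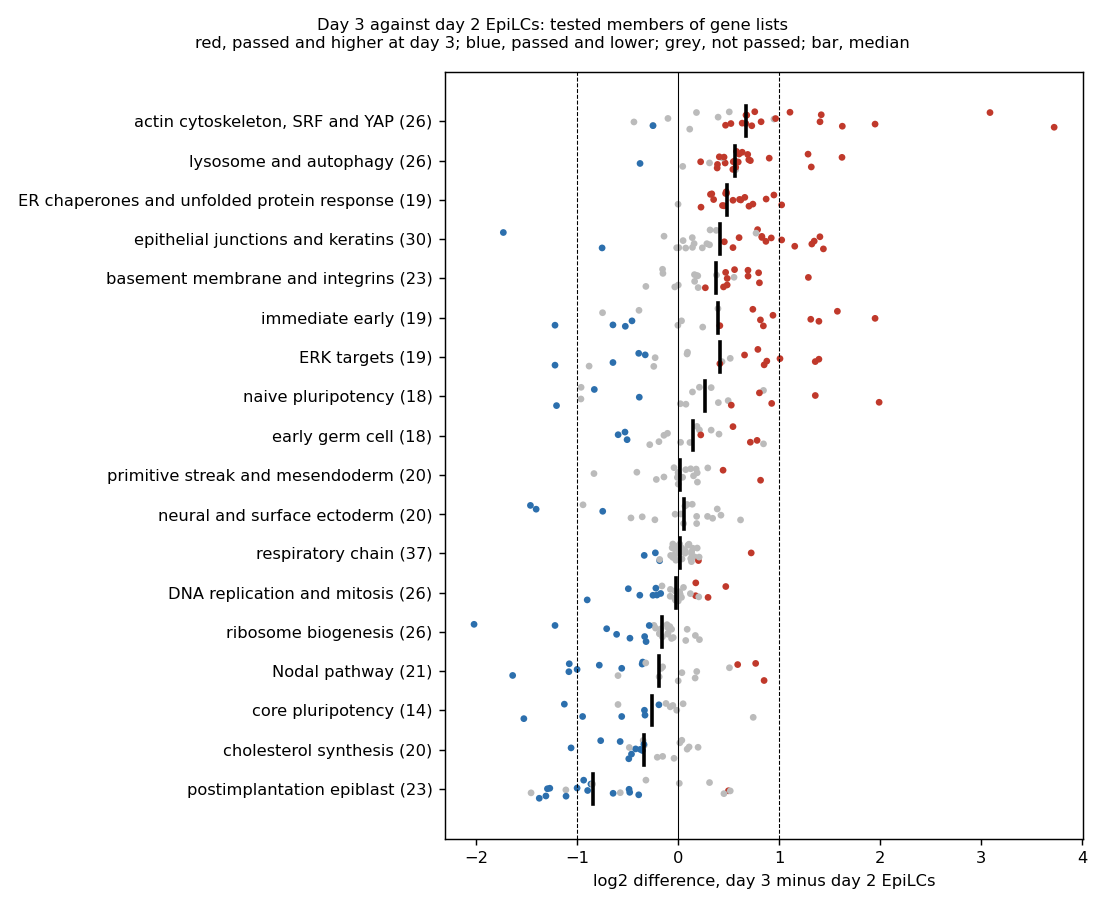
Log2 difference between day 3 and day 2 EpiLCs (horizontal axis) for every tested member of 18 of the 44 gene lists, with the number of tested members in brackets. Red points passed and were higher at day 3, blue points passed and were lower, grey points did not pass, black bars are medians and dashed lines mark a difference of 1. The actin list has its median at 0.67, the lysosomal list at 0.56 and the postimplantation list at -0.85.

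Signalling genes are given pathway by pathway. In the Nodal pathway, which patterns the epiblast, 4 of 21 tested members were called lower and 0 higher, against 2.78% and 1.48% of all genes. By adjusted p alone 8 were lower and 3 higher, against 13.3% and 12.4% of all genes. The Nodal antagonists Lefty1 and Lefty2 are induced by Nodal signalling itself. Lefty1 read 775 and 854 at day 3, against 1748 and 1688 at day 2 (-1.08 ± 0.07, adjusted p = 5.28e-06). Lefty2 read 185 and 151 at day 3, against 357 and 351 at day 2 (-1.08 ± 0.11, adjusted p = 5.04e-05, and -0.94 without replicate 2 of day 3). Nodal passed with a smaller fall, at 619 and 620 at day 3 and 810 and 776 at day 2 (-0.36 ± 0.07, adjusted p = 0.00244). The receptor gene Acvr2b was called lower at -1.64 ± 0.20, but its brighter probe set on the unamplified arrays gave 0.21, so its direction depends on the probe set. Fst, described above, was the other called member. Without replicate 2 of day 3, 2 of the 4 calls held.

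Id3, a target of BMP signalling that blocks differentiation factors, read 33.8 and 33.3 at day 3, against 124 and 157 at day 2 (-2.06 ± 0.15, adjusted p = 8.93e-06). Other BMP targets did not share this fall. Id1 did not pass (-0.04 ± 0.14, adjusted p = 0.902), and Id2 passed as higher (0.81 ± 0.27, adjusted p = 0.0452). Of 20 tested BMP pathway genes, 4 passed as higher, Tbx3 among them, and 1, Id3, as lower, against 12.4% and 13.3% of all genes. Only 2 passed as higher without replicate 2 of day 3 or replicate 1 of day 2, and 2 passed as lower without replicate 1 of day 2. Of 25 tested WNT ligands, receptors and antagonists 5 passed as lower and 0 as higher, against 13.3% and 12.4% of all genes. Fewer passed as lower on leaving out any 1 array. The called ones were Wnt8a, which was below the filter level, and the receptor gene Fzd8, which fell to 17.0 and 12.9 at day 3, against 54.1 and 48.9 at day 2 (at least 1.83-fold lower, adjusted p = 0.000933). Fzd8 was not called when values below the filter level were raised to it. Wnt8a lost its call without replicate 1 of day 3 or either day 2 array (adjusted p of 0.0707 to 0.102). Of 14 tested WNT targets 0 were called and 1, Lef1, passed (-0.48 ± 0.09). Without replicate 1 of day 3 or replicate 1 of day 2, 2 passed as lower.

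Components of LIF and STAT3 signalling, which sustains naive ESCs, were split. Of 16 tested, 2 were called higher and 2 lower, against 1.48% and 2.78% of all genes. The falls were Pim2 and Gbx2, of which Gbx2 is lost as given above. Jak2, a receptor-associated kinase, read 173 and 182 at day 3, against 60.9 and 43.8 at day 2 (1.78 ± 0.16, adjusted p = 3.4e-05). Pim3, a STAT3 target, read 1825 and 1842 at day 3, against 773 and 743 at day 2 (1.28 ± 0.07, adjusted p = 2.12e-06). Thus 1 Pim kinase rose while another fell. The guidance genes Ntn1 and Efnb1 were the called members of 29 tested Eph, ephrin and semaphorin genes. Ntn1, which encodes the secreted protein netrin-1, read 84.7 and 79.5 at day 3, against 7.41 and 11.1 at day 2 (at least 2.92-fold higher, adjusted p = 3.84e-06). Efnb1 read 67.8 and 53.9 at day 3, against 23.2 and 18.8 at day 2 (at least 2.15-fold higher, adjusted p = 0.000188).

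Mycn, a Myc-family factor that drives growth of early embryonic cells, read 469 and 436 at day 3, against 1927 and 1746 at day 2 (-2.02 ± 0.09, adjusted p = 6.5e-07). Its other probe sets gave -1.83 and, for a dim one, -0.19. Myc read 254 and 246 at day 3, against 570 and 595 at day 2 (-1.22 ± 0.29, adjusted p = 0.00976). The call of Myc was lost without replicate 2 of day 3 (adjusted p = 0.0589), replicate 1 of day 2 (0.0535) or replicate 2 of day 2 (0.0633). These 2 were the called members of 26 tested genes of ribosome biogenesis and its regulators. Of the 26, 8 passed as lower and 0 as higher (median -0.16), against 13.3% and 12.4% of all genes. Without replicate 2 of day 3, 4 passed as lower.

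Of 20 tested cholesterol synthesis genes 9 passed as lower and 0 as higher (median -0.34), against 13.3% and 12.4% of all genes. The called one was Stard4, a sterol transfer protein, at 474 and 454 at day 3 and 991 and 942 at day 2 (-1.06 ± 0.08, adjusted p = 1.37e-05). Without replicate 2 of day 2, 5 passed, and 6 without replicate 1 of day 2. Of 28 hypoxia response genes 4 were called lower and 2 higher, against 2.78% and 1.48% of all genes. Bnip3, a mitophagy receptor, read 691 and 780 at day 3, against 1659 and 1700 at day 2 (-1.19 ± 0.17, adjusted p = 0.000489). Egln3, an oxygen sensor that targets HIF, read 216 and 188 at day 3, against 445 and 454 at day 2 (-1.16 ± 0.13, adjusted p = 0.000151). Angptl4 (-1.33 ± 0.20) and Ddit4 were the other falls. The rises, Adm and Pfkfb3, each lost their call when at least 1 array was left out. Adm had an adjusted p of 0.0693 to 0.153 over the 4 omissions, and Pfkfb3 one of 0.0532 without replicate 1 of day 3 and 0.0682 without replicate 1 of day 2.

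None of the 37 tested respiratory chain genes was called by limma. Of the 37, 2 passed as higher and 3 as lower, against 12.4% and 13.3% of all genes. The count passing as higher was 1 without replicate 2 of day 3 or without either day 2 array, and 1 passed as lower without replicate 1 of day 2. None of 26 DNA replication and mitosis genes was called either. Of the 26, 4 passed as higher and 7 as lower, against 12.4% and 13.3% of all genes. Without replicate 2 of day 3, 0 passed as higher, and without replicate 1 of day 3 or of day 2, 3 passed as lower. Among the latter were Ccne1 (-0.49 ± 0.08) and Ccne2 (-0.90), the cyclins of S phase entry. The inhibitor Cdkn1b (p27) passed as higher, at 730 and 740 at day 3 and 442 and 445 at day 2 (0.73 ± 0.07, adjusted p = 5.34e-05). The list of cell cycle inhibitors and D cyclins went both ways, with 10 positive and 9 negative differences among 19 tested members (median 0.05). Of these, 6 passed as higher and 2 as lower, against 12.4% and 13.3% of all genes.

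Markers of other cell types were read to see what the cultures held. In bulk RNA, fewer cells of a type and less RNA per cell cannot be told apart. Of 20 tested primitive streak and mesendoderm genes 0 were called, and 2 passed as higher (Amot and Pdgfra, the second below the filter level). Without replicate 1 of day 3, replicate 2 of day 3 or replicate 1 of day 2, 0 passed. On the 4 arrays 14 of the 23 list members on the array lay below the filter level. Cer1 stayed at or next to the lowest value of the table, with 1 and 1 at day 3 and 1.02 and 1 at day 2. Mixl1 and Wnt3 were too dim to be tested. The summed level of the list was 781 to 852 at day 3 and 733 to 795 at day 2. Eomes read 61.8 and 61.9 at day 3 and 71.6 and 72.2 at day 2 (adjusted p = 0.745).

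Of 20 tested neural and surface ectoderm genes 2 were called lower and 0 higher, and the summed level was 2385 to 2462 at day 3 and 2514 to 2543 at day 2. Sox1, the earliest neural marker, read 25.5 and 24.9 at day 3 and 60.0 and 80.2 at day 2 (at least 2.47-fold lower, adjusted p = 0.000307), although another of its probe sets gave 0.15. Irx3 read 61.0 and 42.6 at day 3 and 139 and 131 at day 2 (-1.41 ± 0.27, adjusted p = 0.00285). Of 15 blood and endothelium genes 0 were called, and their sum was 748 to 773 at day 3 and 917 to 963 at day 2. Of 11 trophoblast genes Esx1 was the 1 called, and it lost its call without any 1 of the 4 arrays (adjusted p of 0.0806 to 0.169). The trophoblast sum was 930 to 955 at day 3 and 783 to 794 at day 2, with Cdx2 below the filter level throughout.

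The visceral endoderm list had a higher sum at day 3, 5058 to 5322, than at day 2, 2740 to 2826. Of its 16 tested members 2 were called higher and 1 lower. Most of the sum was Apoe, an apolipoprotein gene that ESCs express too, which read 3500 and 3736 at day 3 and 1629 and 1662 at day 2 (1.14 ± 0.10, adjusted p = 2.84e-05) and averaged 6436 in ESCs. Lrp2 (megalin), an endocytic receptor, read 731 and 727 at day 3 and 313 and 352 at day 2 (1.14 ± 0.19, adjusted p = 0.00143), but its call was lost with the mean of its probe sets (0.52). Gata4, an endoderm factor, read 14.6 and 15.8 at day 3 and 67.9 and 68.5 at day 2 (at least 2.43-fold lower, adjusted p = 0.000106). Its call was lost with the mean of its probe sets (-1.09), and its other, dim probe set gave -0.02. Foxa1 (1 and 1 at day 3, 1 and 4.17 at day 2) and Ttr stayed below the filter level.

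The mesenchymal and fibroblast list also had a higher sum at day 3, 9739 to 10066, than at day 2, 6192 to 6308, while its members went both ways. Of 25 tested, 2 were called higher and 2 lower, against 1.48% and 2.78% of all genes. The median difference was -0.05, and 5 members passed in each direction, against 12.4% (higher) and 13.3% (lower) of all genes. The count passing as lower was 3 without replicate 1 or replicate 2 of day 2, and 1 to 3 were called lower on leaving out 1 array. Lgals1, a galectin, read 2485 and 2738 at day 3, against 914 and 1020 at day 2 (1.43 ± 0.08, adjusted p = 2.12e-06). S100a6, a calcium-binding protein, read 218 and 177 at day 3, against 575 and 604 at day 2 (-1.59 ± 0.15, adjusted p = 4.62e-05). Zeb1, a repressor of epithelial genes, was at least 1.43-fold lower at day 3, with 20 and 18.2 against 31.0 and 51.7 at day 2, and its call was lost without replicate 2 of day 3 or without replicate 2 of day 2, where the difference was -0.70. It was also lost with values raised to the filter level (-0.51) or a pseudocount of 16 (-0.68) and when its probe sets were averaged (-0.15), and another, brighter probe set gave -0.18. Col1a1 passed as lower (-0.87). On the array, 7 of the 25 members lay below the filter level on all 4 arrays. The part of other cells in the actin result was not tested.

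Among the remaining large rises, Fabp3, a fatty acid-binding protein, stood out for its level. It read 3557 and 4322 at day 3, against 519 and 670 at day 2 (2.73 ± 0.13, adjusted p = 7.25e-07), and averaged 4823 in ESCs. B2m, the light chain of class I histocompatibility molecules, read 1177 and 1373 at day 3, against 316 and 348 at day 2 (1.94 ± 0.16, adjusted p = 1.68e-05). It was the 1 called gene of 24 tested interferon and antigen presentation genes. Dcaf12l1 read 673 and 597 at day 3, against 110 and 119 at day 2 (2.47 ± 0.14, adjusted p = 1.81e-06). Its day 2 level was close to its means in ESCs and day 1 EpiLCs, 97.6 and 122.

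The other leading rises started from below the filter level at day 2. Tinagl1, a matrix protein, was at least 2.65-fold higher at day 3, Zmynd10, which assembles dynein arms of cilia, at least 4.13-fold, Adgra2, an adhesion receptor, at least 1.5-fold, and Tcstv1, known from the 2-cell embryo, at least 1.80-fold. Gab2 was called higher, but its probe set that is brightest on the unamplified arrays gave -0.17. The calls of Adgra2 and Tcstv1 were lost when values below the filter level were raised to it.

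The largest falls were mostly of dim genes. Kirrel, a cell adhesion molecule of the kidney filter, read 1 and 1 at day 3, the lowest value of the table, against 60.4 and 67.9 at day 2, at least 2.28-fold lower (adjusted p = 5.72e-07). It read between 67.1 and 107 on the arrays of the ESC, day 1, EpiSC and PGCLC groups, so day 3 stood alone. Zfp936 read 58.7 and 49.7 at day 3, against 259 and 302 at day 2 (-2.37 ± 0.17, adjusted p = 9.21e-06). Zfp719 (at least 3.39-fold), Bbs10 (at least 3.07-fold), Tnfsf11 (RANKL, at least 2.20-fold), Zfp40 (at least 1.73-fold), Kbtbd6 (at least 1.72-fold) and Hps6 (at least 1.21-fold) were lower. Zfp40 was not called from the mean of its probe sets, and another of them above the filter level gave -0.02. Dido1 was called lower at -2.57 ± 0.12, but another of its probe sets gave 0.04. Gabrr2, Adh6a and Homez completed the 12. The calls of Zfp40, Gabrr2, Kbtbd6, Adh6a and Hps6 were lost when values below the filter level were raised to it. That of Adh6a was also lost without replicate 2 of day 3, replicate 1 of day 2 or replicate 2 of day 2 (adjusted p of 0.0579 to 0.165).

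Many of the genes that fell were zinc finger genes with names of the form Zfp and a number, a group singled out after the values were seen. Most zinc finger genes of this kind encode DNA-binding proteins, many with a KRAB domain that recruits a silencing complex to transposable elements. Of 312 tested, 50 were called lower (16%) and 2 higher, against 2.78% and 1.48% of all genes, and 126 passed as lower and 15 as higher. Their median difference was -0.35. Their median intensity was 103 in day 3 and 138 in day 2 EpiLCs. With a pseudocount of 16 the count called lower was 25, and with values raised to the filter level it was 33. Without 1 array it lay between 36, without replicate 2 of day 3, and 62, without replicate 1 of day 3.

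**Figure D4:**
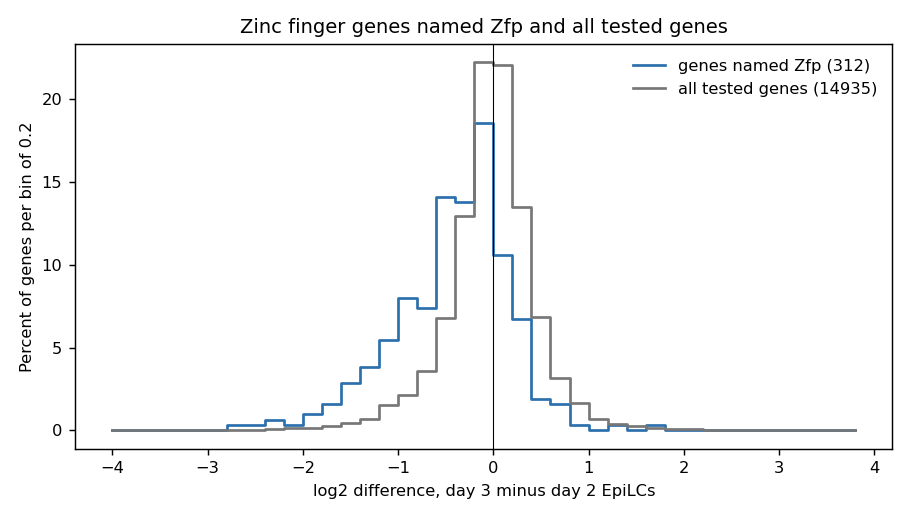
Distribution of the log2 difference between day 3 and day 2 EpiLCs (horizontal axis, bins of 0.2) for 312 tested genes named Zfp (blue) and all 14935 tested genes (grey), as percent of each set. The blue line lies to the left of the grey one, with medians of -0.35 and -0.01.

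The levels in the other unamplified groups place the third day in the course of induction. They share the day 3 and day 2 arrays or the same fit and are given as levels only. Tagln and Cnn2 increased at each step. Tagln averaged 13.4 in ESCs and 76.0, 339 and 1377 at days 1, 2 and 3, and Cnn2 274, 402, 812 and 2503. EpiSCs averaged 3667 for Tagln and 2938 for Cnn2, and PGCLCs 211 and 1347. Acta1 lay below the filter level on average in ESCs and day 1 EpiLCs, and reached 1494 in EpiSCs. Lamp2 and Neu1 had lower means at days 1 and 2 than in ESCs and higher ones again at day 3. Lamp2 averaged 2797 in ESCs and 534, 743 and 1850 at days 1, 2 and 3, and Neu1 211, 74.6, 147 and 451.

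Fgf5, Pim2 and Pou3f1 were already above their ESC means at day 1. Fgf5 averaged 4.2, the floor, in ESCs, and 802, 878 and 358 at days 1, 2 and 3, with 868 in EpiSCs. Pim2 averaged 67.5 in ESCs, 1718, 2492 and 1033 at days 1, 2 and 3, and 2315 in EpiSCs. Pou3f1 averaged 66.0 in ESCs, 3406, 3773 and 1523 at days 1, 2 and 3, and 1413 in EpiSCs. Day 3 means thus lay below the EpiSC means for Fgf5 and Pim2 and above it for Pou3f1. Mycn had the lowest mean of the 6 groups at day 3, 452, against 1434 in ESCs, 2879 and 1834 at days 1 and 2, 1258 in EpiSCs and 2336 in PGCLCs.

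**Figure D5:**
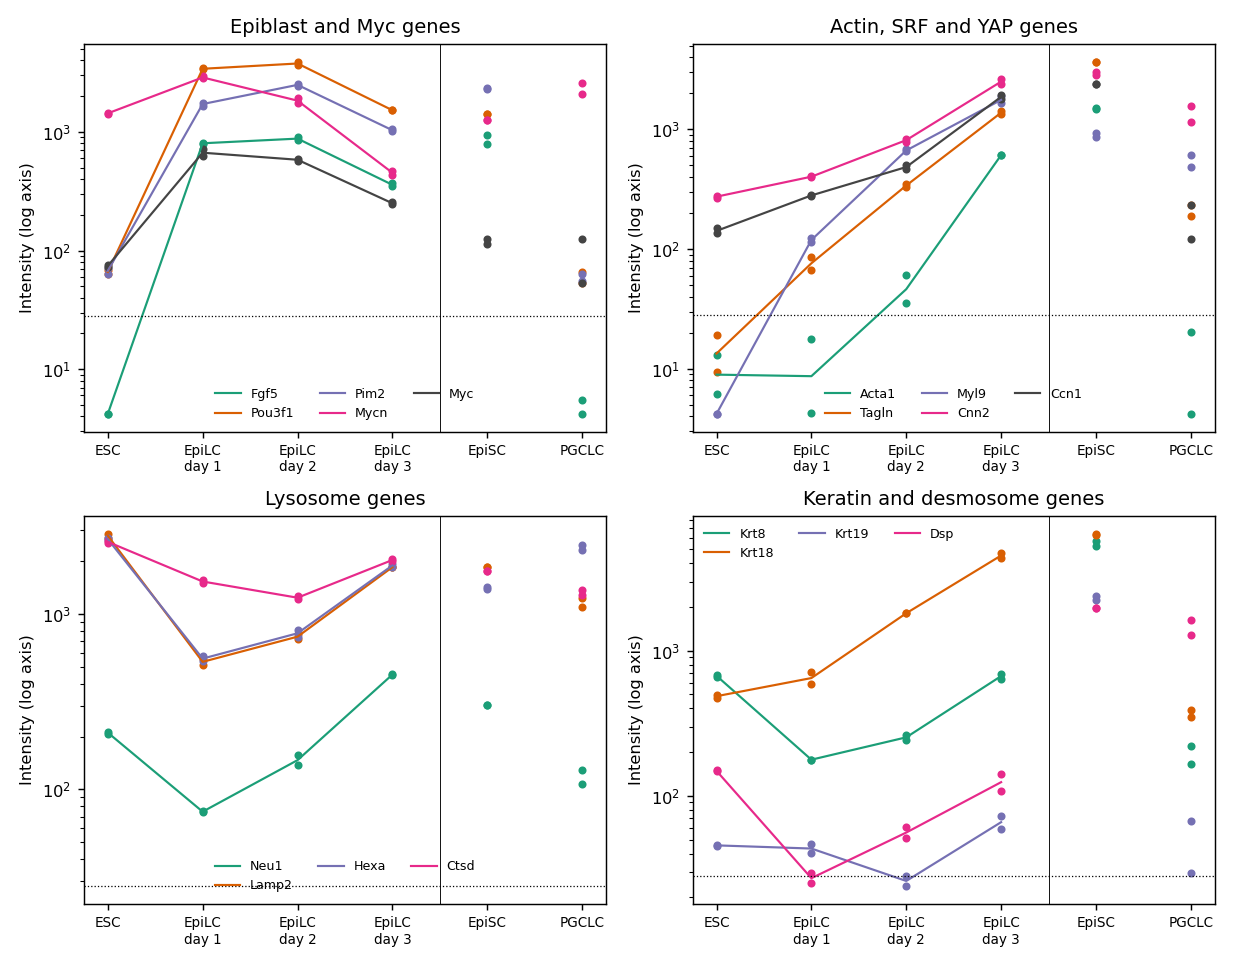
Intensity (log axis) of selected genes on each of the 12 unamplified arrays, for ESCs, EpiLCs at days 1, 2 and 3, EpiSCs and PGCLCs. Points are single arrays, lines join group means from ESCs to day 3, values under the floor of 4.2 are drawn at it, and the dotted line is the filter level of 28.1. Of the genes drawn, the epiblast and Myc genes were lower at day 3 than at day 2, the actin genes increased at each step from day 1, and the lysosomal genes had their EpiLC minimum at day 1 or 2 and were higher again at day 3.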

How the data were processed

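The deposited values are linear intensities of the probe sets of 24 Affymetrix Mouse Genome 430 2.0 arrays. Per the labels' protocols, total RNA was extracted with Qiagen RNeasy and labelled by the one-cycle assay. The sources used here do not name the software or normalization that produced the deposited intensities. Arrays have no read depth, and 2 arrays per day limit the precision.

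Of the probe sets, 34958 are listed with 1 gene symbol, 932 with several, 9211 are not listed and 64 are controls. Gene IDs of 34754 matched RefSeq (GRCm38.p6). Of the probe sets of a gene, the one brightest on average (mean log2 over the 24 arrays) was used, which gave 18194 genes. A floor was set at the 10th percentile of all deposited values (4.2) before taking log2. Genes with at least 2 of the 12 unamplified arrays above the 40th percentile (28.1) were tested, 14935 in all.

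Groups were taken from the labels. limma 3.58.1 in R 4.3.3 was fitted over the 12 unamplified arrays with 1 mean per group, a variance trend and 6 residual degrees of freedom. Two-sided p-values were adjusted over all genes tested (Benjamini-Hochberg). The fit and the calls were also run on simulated data with planted differences, which does not test the floor, the filter or the choice of probe set.

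The members, the 44 gene lists (938 genes, 842 tested) and the tests were chosen with earlier results of these data known. The text names the 12 largest called rises and falls without overlap between days and without provisional names, up to 6 called members of each list, and a fixed set of pluripotency, germ line and lineage genes. Other genes are said to be chosen after their values were seen, or are given as further members of a list. Alternatives were other scalings, floors, a pseudocount, probe set rules, fits, a replicate block and leaving out each array.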

Additional observations from a re-analysis of the deposited data

How the results depend on the processing

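The count of called genes was 636 as reported. A pseudocount of 16 in place of the floor gave 362 (146 higher, 216 lower), and dropping the fold minimum gave 3844 (1857 higher, 1987 lower). Leaving out 1 array gave 543 to 707 called genes, 182 to 262 of them higher and 292 to 479 lower, with a lone array assumed to vary like the other groups. Every other alternative run kept these counts within 1.5 times, including centred arrays (640) and quantile normalization (654), under which the median of all genes moved to -0.01 and -0.03. A fit with the replicate number as a block gave 640 calls over 12 arrays and 666 over the 8 ESC and EpiLC arrays. Residuals of same-numbered day 3 and day 2 arrays correlated at r = -0.05, so the numbers were not taken to pair the arrays. Same-numbered ESC and EpiLC arrays also share a code whose meaning the labels do not give, and the 8-array block covers it. Directions turned for Acvr2b (0.21) and Gab2 (-0.17) with the probe set that is brightest on the unamplified arrays, and for Prdm14, which was not called, without replicate 2 of day 3 (-0.11; up to 0.53 without another array). The cause was not tested. Of 96 called genes named by rule, 55 kept their call under every alternative in which they were tested (14 for Kirrel, 15 for the others) and 41 lost it under at least 1. With all values below the filter level raised to it, 284 genes were called lower and 187 higher, against 415 and 221 as reported. The mean of the probe sets gave 286 lower and 206 higher.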

Other observations

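A few further called genes were singled out after their values were seen. G3bp2, a stress granule protein, read 2622 and 2880 at day 3, against 6447 and 6067 at day 2 (-1.19 ± 0.06, adjusted p = 1.08e-06), and its other probe sets gave -0.87 and -0.95. Srsf2, a splicing factor, read 1938 and 1804 at day 3, against 4462 and 4181 at day 2 (-1.21 ± 0.07, adjusted p = 2.82e-06), with -0.86, -0.71 and -0.19 from its other probe sets. Sfpq, a nuclear paraspeckle protein, read 1095 and 990 at day 3, against 3188 and 3105 at day 2 (-1.59 ± 0.07, adjusted p = 4.53e-07). Its 5 other probe sets gave values from -1.37 to 0.44, so its value depends on the probe set. That is also so for Nsd1, a histone methyltransferase, at -1.46 ± 0.11 with 1.03 from another probe set above the filter level. Fastkd5, which acts in mitochondrial RNA processing, has a single probe set and read 125 and 105 at day 3, against 514 and 513 at day 2 (-2.16 ± 0.09, adjusted p = 4.53e-07). Taf15, an RNA-binding protein, was higher, at 744 and 716 at day 3 and 166 and 185 at day 2 (2.06 ± 0.26, adjusted p = 0.000291), with 0.22 from another probe set. Other rises singled out in the same way were Irak2, a kinase of Toll-like receptor signalling (566 and 656 at day 3, 137 and 159 at day 2, 2.05 ± 0.11), Nuak1, a kinase that regulates myosin phosphatase (373 and 409 at day 3, 96.5 and 105 at day 2, 1.96 ± 0.11), and Afap1, an actin filament-associated protein (534 and 547 at day 3, 138 and 165 at day 2, 1.84 ± 0.11).

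Of 23 tested imprinted genes 2 were called higher and 2 lower. On leaving out 1 array, 1 to 2 were called higher and 0 to 1 lower. Impact read 942 and 1013 at day 3 and 445 and 474 at day 2 (1.09 ± 0.07, adjusted p = 4.33e-06), though another probe set gave 0.37. Of 16 tested Hox genes 0 were called higher and 1, Hoxd12, lower. Hoxd12 read 21.6 and 2.59 at day 3 and 37.4 and 40.9 at day 2 (at least 1.39-fold lower, adjusted p = 0.0181). Its call was lost under 5 of the 15 alternatives. The 15 heat shock genes included 1 called rise, the small heat shock gene Hspb8 (745 and 763 at day 3, 348 and 355 at day 2, 1.10 ± 0.23, adjusted p = 0.00476). Of the 15, 3 passed as higher and 4 as lower, against 12.4% and 13.3% of all genes. Of 22 genes of oxidative stress and metallothioneins, 6 passed as lower and 1 as higher, with Srxn1 called lower (60.7 and 60.3 at day 3, 156 and 175 at day 2, -1.45 ± 0.10, adjusted p = 8.12e-06). Srxn1 was not called from the mean of its probe sets (-0.63), and 1 of its other probe sets above the filter level gave -0.09. The count passing as higher was 0 without replicate 2 of day 3 or replicate 2 of day 2. Of 23 genes of H3K9 methylation and Polycomb, 4 passed as lower and 1 as higher. Without replicate 1 of day 3 or replicate 2 of day 2, 2 passed as lower, and with the mean of the probe sets 1 did. The called fall was Cbx2, a Polycomb subunit, at 122 and 131 at day 3 and 254 and 278 at day 2 (-1.07 ± 0.17, adjusted p = 0.00103), and another probe set gave 0.22. Of 15 fatty acid synthesis genes 3 passed as lower, and of 15 retinoic acid pathway genes 1 did, but 0 without replicate 2 of day 3 or either day 2 array. Of 23 glycolysis and lactate genes 3 passed in each direction. The fit with day 3 and day 2 arrays alone gave 3 higher and 7 lower, and the replicate block over 8 arrays 4 higher and 10 lower. The glucose transporter Slc2a3 was among the rises, at 6444 and 7115 at day 3 and 3841 and 3518 at day 2 (0.88 ± 0.06, adjusted p = 5.5e-06). Of 13 FGF ligands and receptors, 2 passed as lower and 1 as higher, the falls being Fgf5 and Fgf15. Fgf15 lost its call without any 1 of the 4 arrays (adjusted p of 0.143 to 0.168), which left 1 that passed as lower, and 0 to 2 then passed as higher.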
